A study of Bos taurus with 8 samples.

Results

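The genes described here carry the symbols of mitochondrial ribosomal proteins, and were measured in granulosa cells of the bovine dominant follicle. A gene was taken as a member where its probe set carried a single gene symbol made of MRPL or MRPS and a number, and 75 of the 18010 genes with a single symbol on the array met this rule, 48 with an MRPL symbol and 27 with an MRPS symbol. These 75 genes had 77 probe sets, and the probe set with the higher mean intensity was kept for MRPL23 and MRPL33, the members with 2 probe sets each. High A4 cows were those with an excess of the androgen androstenedione (A4) in their follicular fluid, and Control cows were herd mates with low A4. Neither group received an androgen or carried an engineered allele. The 4 High A4 cows came from the highest end of their group, with a mean of 356 ng/mL A4, and the 4 Control cows from the lowest end of theirs, with a mean of 1.9 ng/mL. All 8 were beef cows whose cycles had been synchronized in the same way, with a progesterone-releasing device (CIDR) in place for 7 days and ovariectomy about 36 h after its removal. Granulosa cells of 1 estrogen-active dominant follicle per cow were hybridized to 1 array each, so that a replicate is a cow, and the ages of the cows were not given in the sources used here.

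Mitochondria carry their own ribosomes, which translate the few proteins encoded by mitochondrial DNA, all of them core subunits of the respiratory chain and ATP synthase. The ribosomal RNAs of this particle are made inside the organelle, whereas every one of its proteins is encoded in the nucleus, made in the cytosol and imported. MRPL symbols were given to proteins of the large subunit, which forms the peptide bond and holds the exit tunnel, and MRPS symbols to those of the small subunit, which decodes the messenger. Granulosa cells depend on mitochondria for steroid synthesis, since the first step from cholesterol takes place at the inner mitochondrial membrane.

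Normalized intensities are in arbitrary units, and a probe set was tested where its mean was above 100, the noise level of the array, in High A4 or in Control. Of the 75 members, 68 were tested. The mean was above 100 in both groups for 64 of these, and in Control alone for MRPL48, MRPL53, MRPS9 and MRPS34. No member passed through High A4 alone. The 10120 probe sets tested were themselves displaced in High A4, with a median log2 fold change (High A4 minus Control) of -0.16 and 74.3% of them below 0. Over every probe set on the array, most of them at or below noise, the median was -0.01 and 50.7% were below 0. Fewer probe sets stood above 100 on High A4 arrays (9065 to 9403) than on Control arrays (9551 to 9687). Fold changes of members are therefore given beside those of the probe sets tested. In RNA of a bulk cell preparation, fewer cells of a type and less RNA per cell cannot be told apart.

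Mitochondrial ribosomal protein genes had, as a list, lower fold changes than the probe sets tested as a whole, and all but 1 of the single differences did not pass the test. Of the 68 members tested, 5 were lower by more than 1.5-fold, and the share of all probe sets past this cut alone was not counted. The log2 fold change was below 0 for 64 of the 68 members tested (94.1%, against 74.3% of all probe sets tested). The median over members was -0.28, which is -0.12 relative to the median of all probe sets, and the middle 50% of members lay between -0.40 and -0.14, against -0.33 to 0.01 for all probe sets tested. The 4 members tested only through Control had to be lower in High A4. Among the 64 with both means above 100, 60 were below 0 (93.8%, against 75.7% of the 8854 such probe sets), with a median of -0.28 against -0.16. MRPS30 alone passed an adjusted p of 0.05 in limma, and it was lower in High A4 (1 of 68 members, against 0.623% of all probe sets tested). No member was higher at this threshold, against 1.56% of all probe sets. At an unadjusted p of 0.05 in limma, 16 members were lower and 0 were higher (23.5% lower, against 17.1% of all probe sets lower and 4.83% higher). For the 67 members that were not called, the adjusted p in limma ran between 0.0982 and 0.933.

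**Figure D1:**
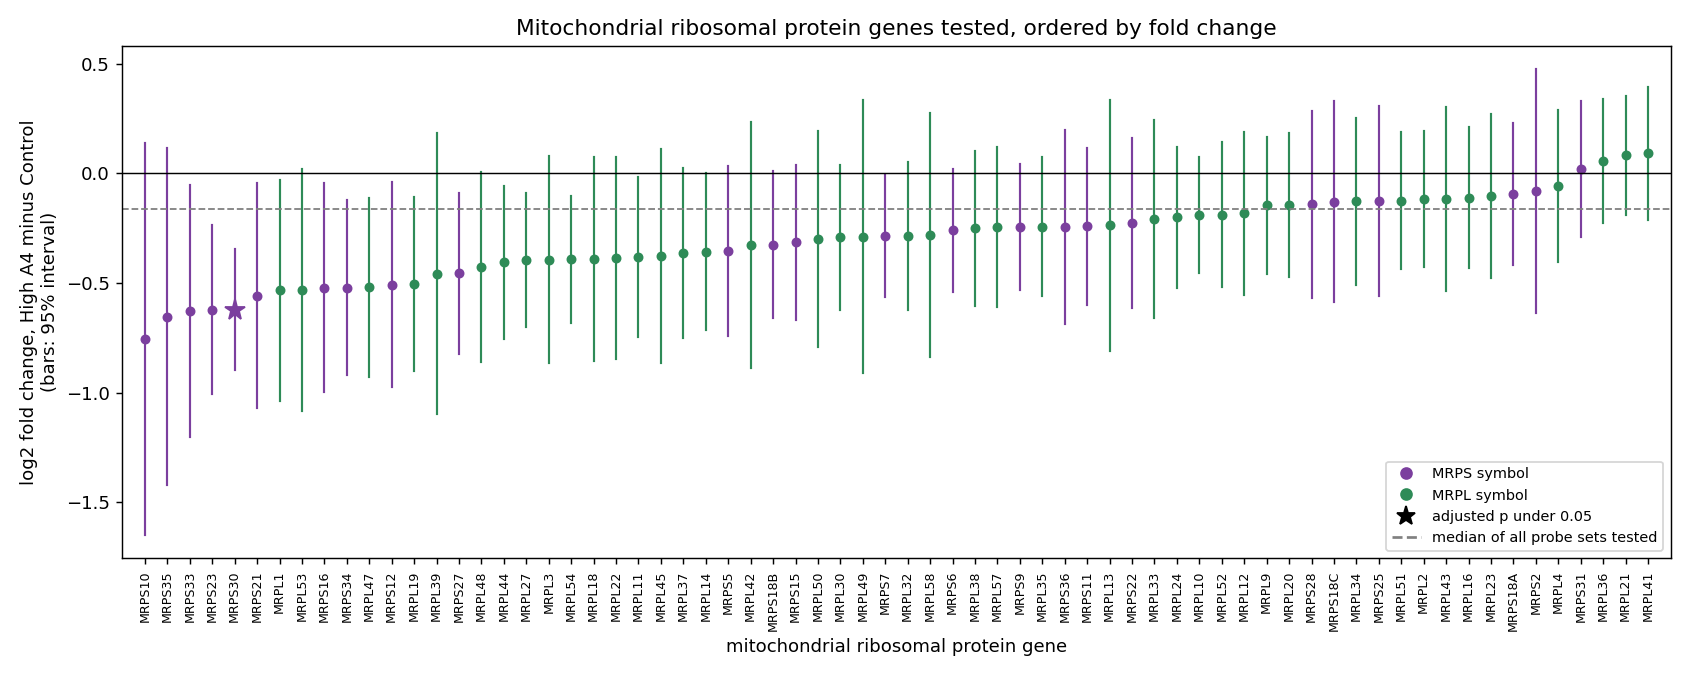
The log2 fold change (High A4 minus Control, n = 4 cows each) of each of the 68 mitochondrial ribosomal protein genes tested, ordered from lowest to highest, with the 95% interval from limma as a bar. All but 4 points lie below 0, the median of all 10120 probe sets tested is the dashed line at -0.16, and MRPS30, drawn as a star, is the member with an adjusted p under 0.05.

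This share of members below 0 moved with the scaling of the arrays. With each array centred on its median over the probe sets tested, a scaling chosen after the data were seen, 50 members were below 0 (73.5%, against 50.6% of all probe sets tested), and 3 members were lower at an unadjusted p of 0.05 (4.41%, against 6.6%). That scaling adds nearly the same amount to every fold change, so it cannot alter the distance between members and the other probe sets. After quantile and cyclic loess normalization the median over members was below that of all probe sets tested by a log2 difference of -0.11 and -0.10.

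MRPS30 was the member with the clearest difference. Despite its symbol, its protein sits in the large subunit in the mammalian structure. Intensity was 186.6, 176.8, 188.6 and 222 in the 4 High A4 cows, against 313, 309, 277 and 289 in the 4 Control cows. Every High A4 cow was below every Control cow, with a wide gap between the groups and little spread within either. Mean intensity was 193 ± 19.6 for the High A4 cows and 297 ± 17.2 for the Control cows (SD, n = 4 each), a log2 fold change of -0.62 (95% interval -0.90 to -0.34, adjusted p = 0.0334 in limma), or 1.54-fold lower. With arrays centred on the probe sets tested its log2 fold change was -0.46, with an adjusted p of 0.0769 in limma. Leaving out any cow other than High A4 replicate 1 or 4 also ended the call, with adjusted p in limma between 0.0128 and 0.147 over the 8 omissions.

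MRPS23, a small subunit protein with no bacterial counterpart, had nearly the same fold change. It measured 178, 146, 209.8 and 225 in High A4 cows, against 279, 297, 240.3 and 345 in Control cows. The groups did not overlap, but the Control cows were more widely spread than for MRPS30. The log2 fold change was -0.62 (standard error 0.17, adjusted p = 0.0982 in limma). MRPS23 and MRPS30 were the 2 members lower by more than 1.5-fold with an unadjusted p under 0.05 in analysis of variance, the criterion of the study's methods (2.94% of members, against 4.38% of all probe sets tested). Both are on the gene list the study drew from these same cows, so that list is no independent evidence for them.

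The lowest fold changes of all belonged to MRPS10 and MRPS35 and came largely from 1 cow. MRPS10, the counterpart of bacterial S10 in the head of the small subunit, measured 268, 839, 944 and 1294 in High A4 cows, against 1053, 1358, 1235 and 1259 in Control cows. MRPS35, a mitochondrion-specific small subunit protein, measured 109.5, 282, 348 and 398 in High A4 cows, against 387, 444, 361 and 423 in Control cows. High A4 replicate 1 was far below the other 7 cows for both genes, and High A4 replicate 4 lay within the Control range for both. The log2 fold changes were -0.75 for MRPS10 (adjusted p = 0.288 in limma) and -0.65 for MRPS35 (adjusted p = 0.286 in limma). Without High A4 replicate 1 they were -0.28 and -0.25.

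Other small subunit genes among the 10 lowest were MRPS33 (log2 fold change -0.63), MRPS21 (-0.56), MRPS16 (-0.52) and MRPS34 (-0.52), with adjusted p between 0.15 and 0.204 in limma. MRPS16 and MRPS21 are counterparts of bacterial S16 and S21, whereas MRPS33 and MRPS34 have none. MRPS33 measured 195, 95.7, 116 and 202 in High A4 cows, against 199.7, 229.9, 187 and 290.3 in Control cows. High A4 replicates 2 and 3 were the low cows here, and replicates 1 and 4 lay within the Control range. MRPS34, among the members tested only through Control, measured 121, 77.1, 80.7 and 95.7 in High A4 cows, against 146, 123, 110.1 and 156 in Control cows. The groups overlapped through High A4 replicate 1 alone.

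**Figure D2:**
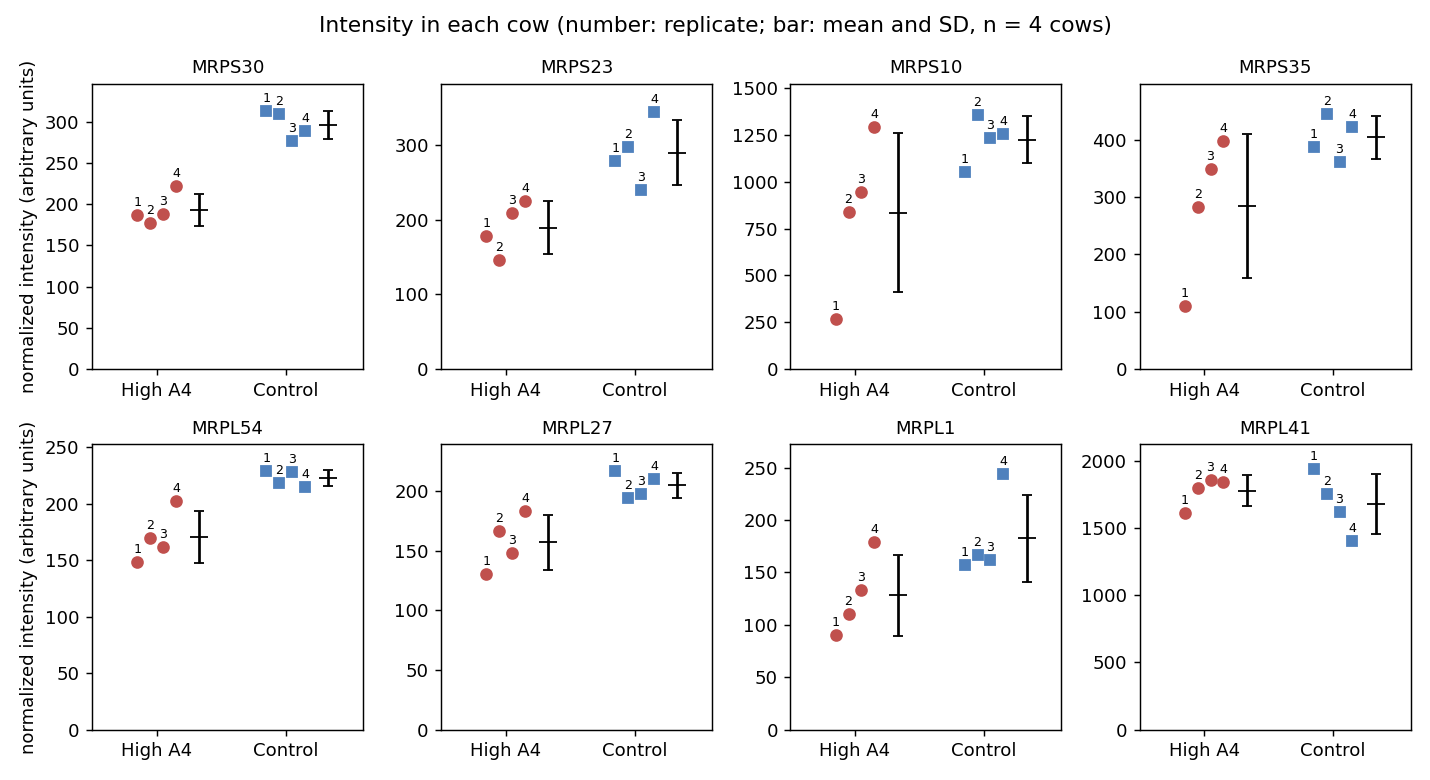
Normalized intensity (arbitrary units, axes from 0) of 8 mitochondrial ribosomal protein genes in each cow, with High A4 as circles and Control as squares, replicate numbers above the points, and mean and SD of 4 cows as bars. High A4 and Control do not overlap for MRPS30, MRPS23, MRPL54 and MRPL27, MRPS10 and MRPS35 are low in High A4 replicate 1, MRPL1 is high in Control replicate 4, and MRPL41 in High A4 lies within the Control range.

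Among the members with an MRPL symbol, the lowest fold changes were those of MRPL1, which forms the mobile stalk beside the tRNA exit site, and MRPL53, a mitochondrion-specific protein. MRPL1 measured 89.99, 110.4, 133 and 179.5 in High A4 cows, against 157, 167, 162 and 244 in Control cows. High A4 replicate 4 lay above 3 of the Control cows, and Control replicate 4 stood above all others. The log2 fold change was -0.53 (standard error 0.23, adjusted p = 0.21 in limma). MRPL53 had a log2 fold change of -0.53 as well (adjusted p = 0.24 in limma), but it was tested only through its Control mean of 119, and its High A4 mean of 85.8 was below the noise level, so that the size of its fold change is uncertain. MRPL47 (-0.52), the counterpart of bacterial L29 near the exit tunnel, and MRPL19 (-0.50), the counterpart of bacterial L19, followed, and were named after their values were seen.

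Counts of cows stood less apart from the other probe sets than the fold changes did. All 4 High A4 cows were below all 4 Control cows for 8 of the 68 members (11.8%, against 10.4% of all probe sets tested), a share near that of the probe sets tested as a whole. The reverse held for 0 members, against 2.93% of all probe sets. Besides MRPS30 and MRPS23 the 8 were MRPL27, MRPL44, MRPL54, MRPS5, MRPS7 and MRPS15, named for this pattern after their values were seen. MRPL27, the counterpart of bacterial L27 at the peptidyl transferase centre, measured 130.2, 167, 148 and 183 in High A4 cows, against 217, 195, 197 and 211 in Control cows. MRPL54, a mitochondrion-specific large subunit protein, measured 149, 170.1, 161 and 203 in High A4 cows, against 229, 218, 229 and 215 in Control cows. Both had their Control cows close together and their High A4 cows spread over a range below it, with log2 fold changes of -0.39 (adjusted p = 0.156 for MRPL27 and 0.142 for MRPL54 in limma). MRPL44, a large subunit protein with the fold of a ribonuclease III, had a log2 fold change of -0.41, and MRPS5, MRPS15 and MRPS7, counterparts of bacterial S5, S15 and S7, had -0.35, -0.31 and -0.29. MRPS15 was tight in High A4, at 155 to 174, and spread upward in Control, at 174 to 267, so that the gap between its groups was under 1 unit.

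At the other end, 4 members had fold changes above 0 and none of them came near the threshold. These were MRPL41 (log2 fold change 0.09), MRPL21 (0.08), MRPL36 (0.06) and MRPS31 (0.02), with a lowest adjusted p of 0.697 in limma. MRPL41, a large subunit protein also known in human cells to bind the survival factor BCL2, measured 1608, 1799.7, 1859.7 and 1844 in High A4 cows, against 1938, 1751, 1616 and 1406 in Control cows. All 4 High A4 cows lay within the Control range. MRPL36, the counterpart of the smallest bacterial large subunit protein, measured 216.5, 221, 216 and 207 in High A4 cows, against 230.5, 205, 221 and 175 in Control cows, with the High A4 cows closer together than the Control cows. The signs of MRPL21, MRPL36 and MRPS31 turned under some settings. The 6 members just below 0 were MRPL4 (-0.06), MRPS2 (-0.08), MRPS18A (-0.09), MRPL23 (-0.10), MRPL16 (-0.11) and MRPL43 (-0.12), all within the displacement of the probe sets tested as a whole.

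Among the members with the highest mean intensities, MRPS6, the small subunit counterpart of bacterial S6, measured 1275, 1484, 1402 and 1631 in High A4 cows, against 1602, 1729, 1724 and 1856 in Control cows. The groups overlapped through High A4 replicate 4 alone, and the log2 fold change was -0.26 (adjusted p = 0.256 in limma). MRPL33, the counterpart of bacterial L33, had -0.21 on the probe set kept and -0.27 on its other one. MRPL23, the counterpart of bacterial L23 at the exit of the tunnel, disagreed between its probe sets, with -0.10 on the one kept and 0.25 on the other, so that its direction is uncertain. The only pair of members next to each other in the RefSeq annotation of the ARS-UCD2.0 assembly was MRPL46 and MRPS11. MRPL46 was below noise in both groups, and MRPS11, the counterpart of bacterial S11, had a log2 fold change of -0.24 with overlapping groups.

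The 7 members that were not tested had means at or below 100 in both groups. They were MRPL15, MRPL17, MRPL28, MRPL46, MRPL55, MRPS14 and MRPS26, with 5 lower and 2 higher in High A4. MRPS26, a mitochondrion-specific small subunit protein, lay just under the noise level in Control. It measured 41.5, 63.1, 50.8 and 82.8 in High A4 cows, against 104, 104, 92.3 and 84.7 in Control cows, and the groups did not overlap. MRPL17, the counterpart of bacterial L17, had the highest fold change of the untested members, at 85.6, 58.8, 70.7 and 75.4 in High A4 cows, against 44.6, 48.3, 59.7 and 93.3 in Control cows, with the Control cows covering the whole High A4 range.

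Both subunits had medians below that of the probe sets tested. The median log2 fold change was -0.31 over the 25 small subunit members tested and -0.28 over the 43 large subunit members tested, counted by symbol. At an unadjusted p of 0.05 in limma, 9 of the 25 small subunit members and 7 of the 43 large subunit members were lower (36% and 16.3%, against 17.1% of all probe sets tested). All High A4 cows were below all Control cows for 5 of the 25 and 3 of the 43 (20% and 6.98%, against 10.4%). Because members were counted by symbol, the 25 include MRPS30 and MRPS18A, whose proteins sit in the large subunit. For the other members counted, including MRPS36, it was not checked that the protein belongs to the subunit its symbol names, or to the ribosome. MRPS30 is among the 9 and among the 5, and MRPS18A is in neither. MRPS34, also among the 9, was tested only through Control and so had to be lower in High A4. MRPL48 and MRPL53, tested in the same way, are not among the 7. The difference between the subunits was not tested. Members numbered up to L36 or S21 carry the number of a bacterial protein, and the 39 of these tested had a median of -0.24, against -0.33 for the 29 with higher numbers, most of which joined the ribosome only in the mitochondrial lineage. MRPL47 is a bacterial counterpart with a high number, and with it moved the medians were -0.25 and -0.31. With all probe sets tested divided into 4 equal bands of mean intensity, the median of members was -0.30, -0.31, -0.24 and -0.23, dimmest band first, against -0.18, -0.18, -0.18 and -0.12 for all probe sets in the same bands. The median of members was below that of all probe sets in each band, on 12, 28, 18 and 10 members.

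The displacement differed between High A4 cows. Averaged over the 68 members tested, log2 intensity relative to each gene's Control mean was -0.44, -0.42, -0.31 and -0.02 in High A4 replicates 1 to 4, against -0.05, 0.01, -0.08 and 0.11 in Control replicates 1 to 4. High A4 replicates 1, 2 and 3 were below every Control cow, and replicate 4 lay among them. After subtraction of the mean over all probe sets tested the values were -0.25, -0.27, -0.17 and 0.00 in High A4 cows, against -0.02, -0.01, -0.07 and 0.10 in Control cows. High A4 replicate 1 was the lowest of all 8 cows for 27 members, replicate 2 for 26, replicate 3 for 9 and replicate 4 for 0. Control replicate 4 was the highest of all 8 for 33 members and the lowest for 6. Such counts were not made over all probe sets tested, whose own mean was -0.19, -0.15, -0.14 and -0.02 in High A4 replicates 1 to 4. They are therefore not read as particular to the members. Without High A4 replicate 4, the count of members lower at an adjusted p of 0.05 in limma was 4 (MRPL19, MRPL54, MRPS23 and MRPS30), or 5.88%, against 5.63% of all probe sets in that fit, and the count with groups that did not overlap was 26. The count of groups that did not overlap was 14 without Control replicate 3 and 13 without Control replicate 4. The share of all probe sets without overlap was not counted in these fits. The rise in these counts is therefore not read as a result about the members.

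**Figure D3:**
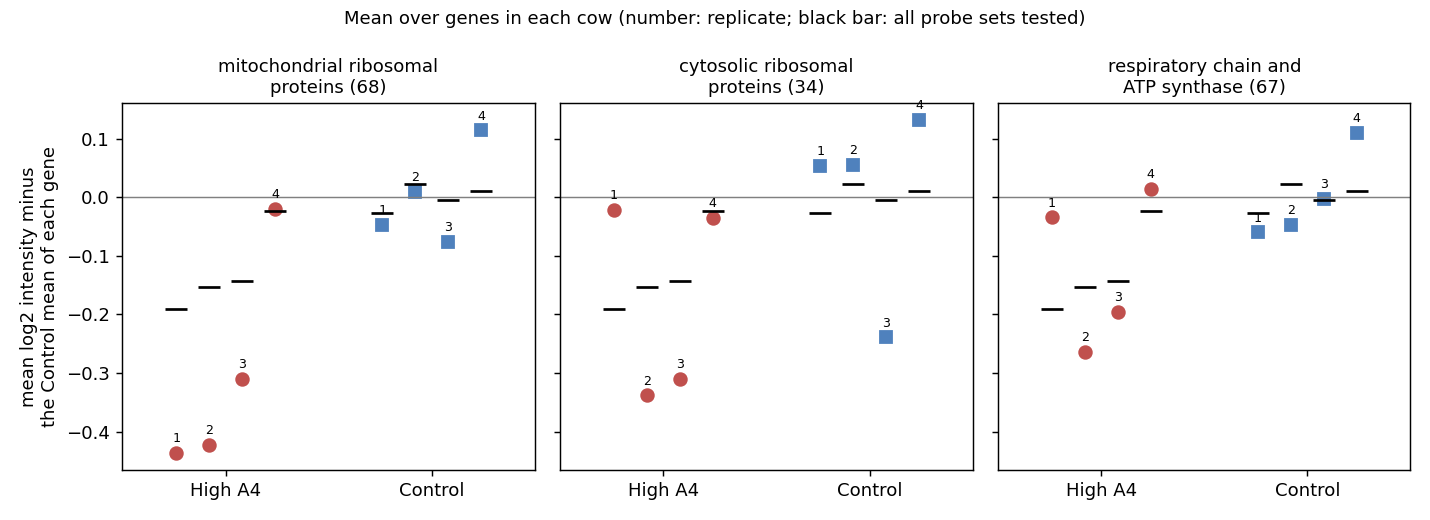
Mean over the tested genes of a list of log2 intensity minus the gene's Control mean, for each High A4 cow (circles) and Control cow (squares), with the mean over all 10120 probe sets tested in the same cow as a black bar. High A4 replicates 1, 2 and 3 lie below their black bars for mitochondrial ribosomal proteins, whereas replicate 1 lies above it for cytosolic ribosomal proteins and for the respiratory chain.

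Spread among cows set what could be seen. The median SD of log2 intensity over members was 0.265 in High A4 and 0.194 in Control (n = 4 each), against 0.268 and 0.182 for all probe sets tested. The 95% interval of a member's log2 fold change had a median width of ± 0.38, as it had over all probe sets tested. For 44 of the 68 members it included a decrease of 1.5-fold, and this share was not counted over all probe sets. For 16 members it excluded 0, which are those lower at an unadjusted p of 0.05 in limma (23.5%, against 17.1% of all probe sets lower and 4.83% higher).

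Genes that work with the mitochondrial ribosome were examined in the same fit, and none of them passed an adjusted p of 0.05 in limma in either direction. Among 5 subunits that carry other symbols the median log2 fold change was -0.28. The lowest was DAP3, a GTP-binding protein of the small subunit (-0.43, adjusted p = 0.228 in limma), and the highest CHCHD1, another small subunit protein (0.13). GADD45GIP1, also among the 5, was tested only through Control. All 13 mitochondrial translation factors and messenger-binding proteins tested were below 0 (median -0.30), against 74.3% of all probe sets, and 5 of them were lower at an unadjusted p of 0.05 in limma (38.5%, against 17.1%). Among the 13, MTO1 and MTRF1 were tested only through Control, so they had to be lower in High A4. The lowest of the 13 was MRRF, the factor that splits the ribosome after termination (-0.67, adjusted p = 0.166 in limma), and the highest GFM1, the elongation factor that moves the ribosome along (-0.03).

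SLIRP and LRPPRC, which bind each other and stabilize mitochondrial messengers, were named after their values were seen. SLIRP measured 887, 728, 675 and 869.9 in High A4 cows, against 1281, 1137, 1086 and 1226 in Control cows. LRPPRC measured 396, 480.5, 462 and 561 in High A4 cows, against 599.6, 629, 588 and 714 in Control cows. Neither gene had overlapping groups, and their log2 fold changes were -0.59 (adjusted p = 0.0592 in limma) and -0.42 (adjusted p = 0.146 in limma).

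The 14 genes of mitochondrial DNA transcription and RNA processing tested had a median of -0.30, between POLG2, the accessory subunit of the mitochondrial DNA polymerase (-0.59, adjusted p = 0.0727 in limma, tested only through Control), and FASTK, which acts on mitochondrial RNA (0.05). FASTKD1 and SUPV3L1 of this list were also tested only through Control. TFAM, which packages mitochondrial DNA and starts its transcription, had -0.41 (adjusted p = 0.235 in limma) and was named after its value was seen. The 19 ribosome assembly and RNA modification genes tested had a median of -0.19, close to that of the probe sets tested, between FASTKD2 (-0.45) and MPV17L2 (0.49), both of which act on the large subunit. Of 5 regulators of mitochondrial biogenesis tested, GABPA, the DNA-binding part of nuclear respiratory factor 2, was the lowest (-0.58, adjusted p = 0.218 in limma) and PPRC1, a coactivator, the highest (-0.03), with a median of -0.18.

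Cytosolic ribosomal proteins and the respiratory chain had medians nearer to that of the probe sets tested. The median log2 fold change was -0.17 over 34 cytosolic ribosomal protein genes tested and -0.13 over 67 respiratory chain and ATP synthase genes tested, against -0.28 for mitochondrial ribosomal proteins and -0.16 for all probe sets tested. At an unadjusted p of 0.05 in limma, 3 of the 34 and 7 of the 67 were lower (8.82% and 10.4%, against 17.1% of all probe sets tested). RPL19 and RPL24 of the cytosolic list were tested only through Control, as were COX7B, NDUFB1, NDUFC1 and UQCRQ of the respiratory chain. COX7C was tested only through High A4. By cow the lists also differed. High A4 replicate 1, the lowest cow for mitochondrial ribosomal proteins, was at -0.02 for cytosolic ribosomal proteins and -0.03 for the respiratory chain, both above its mean over all probe sets. High A4 replicates 2 and 3 were below every Control cow for all 3 lists. After subtraction of the mean over all probe sets tested, they were at -0.19 and -0.17 for cytosolic ribosomal proteins. Control replicate 3 was lower there, at -0.23. For the respiratory chain they were at -0.11 and -0.05, against -0.07 in Control replicate 2. The lists also differed in brightness, with a median intensity of 1238 for cytosolic ribosomal proteins, 464 for the respiratory chain and 208 for members. In the brightest band all probe sets had a median of -0.12, and the 10 members there had -0.23. The cytosolic median of -0.17 was lower than that -0.12, though not every gene of the list falls in this band. These 2 lists were not divided into bands. Differences between the lists were not tested, and the part of brightness in them was not tested.

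**Figure D4:**
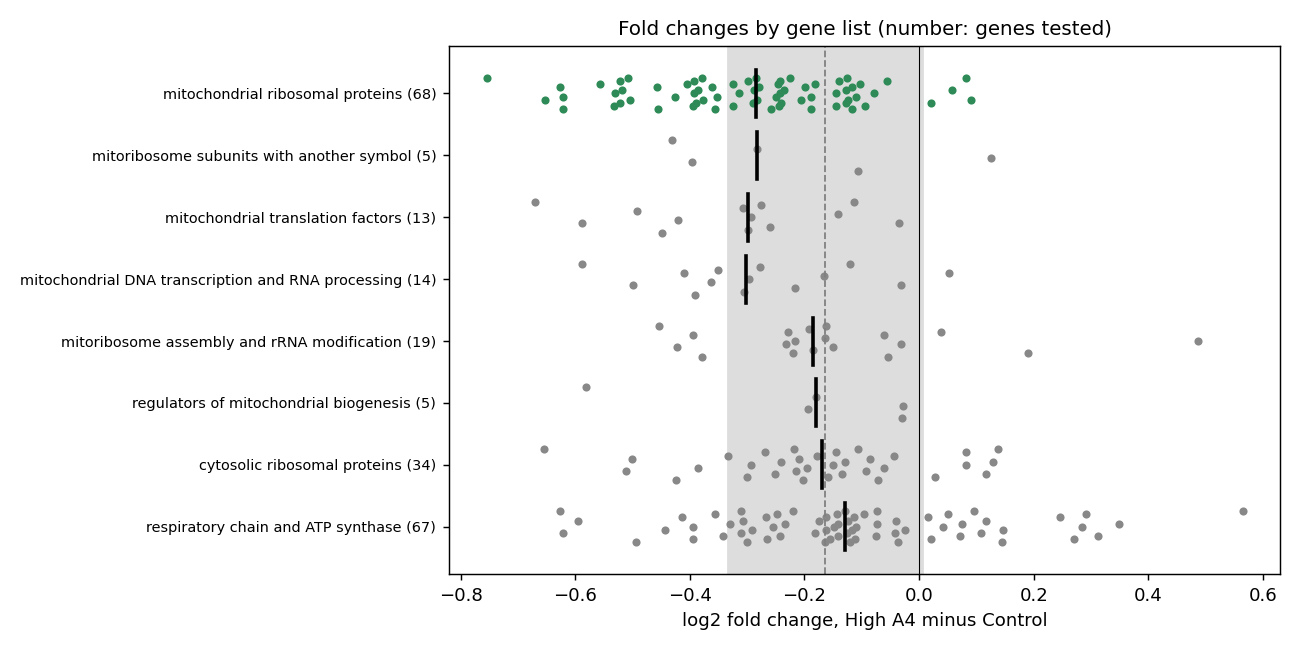
The log2 fold change (High A4 minus Control) of each tested gene in 8 lists, with the median of each list as a black bar, the median of all probe sets tested as a dashed line and their middle 50% as a grey band. The medians of mitochondrial ribosomal proteins, translation factors and mitochondrial DNA transcription lie near -0.30, and those of cytosolic ribosomal proteins and the respiratory chain at -0.17 and -0.13.

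Markers of the follicle's cell layers were read on the same arrays, from granulosa cells that the labels put at 94% purity or more. All 10 granulosa markers had means above 100 in both groups, with a summed intensity of 27741 to 29612 in High A4 cows and 26454 to 28020 in Control cows. Of 6 theca markers, 5 were above 100 in High A4 and 4 in Control, with sums of 1872 to 4661 in High A4 cows and 848 to 1719 in Control cows. CYP17A1, the theca enzyme of androgen synthesis, measured 1772, 459, 449.7 and 412 in High A4 cows, against 99.3, 116, 178 and 56.4 in Control cows. The groups did not overlap, and it was higher in High A4 (log2 fold change 2.59, adjusted p = 0.0223 in limma), as was ALDH1A1, also counted as theca (1.87, adjusted p = 0.000384 in limma, tested only through High A4). Of the other 3 theca markers tested, INSL3 had a log2 fold change of 1.13 (adjusted p = 0.172 in limma), and PTCH1 (-0.14) and NR2F2 (-0.18) were below 0 with overlapping groups. Of 10 stromal markers, 4 were above 100 in High A4 and 3 in Control, with sums of 1741 to 3278 in High A4 cows and 685 to 2471 in Control cows. The stromal proteoglycans OGN (1.53, adjusted p = 0.000978 in limma, tested only through High A4) and DCN (1.35, adjusted p = 0.0472 in limma) were higher in High A4, and the calls of DCN and CYP17A1 ended when some single cows were left out. All 5 smooth muscle and all 8 leukocyte markers measured were at or below noise in both groups, and of 7 endothelial markers ENG alone was above it, in High A4. CYP17A1, ALDH1A1, OGN and DCN thus moved between the same groups as MRPS30, and their part in the values of the mitochondrial ribosomal protein genes was not tested.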

How the data were processed

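Affymetrix Bovine Gene 1.0 ST arrays measured granulosa cell RNA, 1 array for each of 8 cows. The authors deposited normalized probe set intensities on a linear scale. The study's methods name RMA and the submitters' processing notes name GCRMA in Affymetrix Expression Console, and which of these made the values is open. Both include quantile normalization across arrays, which can hide a change shared by most genes. The deposited arrays still differed, with median intensities over all probe sets of 47.9 to 54.6. Quantile normalization of these values moved the median log2 fold change of all probe sets tested from -0.16 to -0.03. The share below 0 moved from 74.3% to 55.7%. Gene symbols came from the platform annotation, and all 75 members matched the RefSeq table of ARS-UCD2.0. No genome or sequence was used here.

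Intensities were converted to log2 and tested with limma (version 3.58.1, R 4.3.3) for High A4 minus Control, two-sided, over 10120 probe sets with a group mean above 100, the noise level in the study's methods. P-values were adjusted over all of these by Benjamini-Hochberg. The number of arrays limits the precision. Members named were those with an adjusted p under 0.05, the 10 lowest and 10 highest fold changes, the 4 with the highest means, those near the noise level and those whose probe sets differ in sign. From other lists the called, the lowest and the highest genes were named. Others are said to be named after their values were seen. Members and gene lists were chosen with earlier results of these data known. Of 22 alternatives, 8 left out 1 cow each and the others changed the filter, scaling, offset, variance model, probe set rule or criterion. The fit was tested on simulated data.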

Additional observations from a re-analysis of the deposited data

Results flagged for a closer look

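Within groups of 4 cows, 10 of 142 groups checked held 1 cow whose distance to the nearest other cow was, relative to the group's range, above Dixon's 95% critical value. Chance flags about 1 in 20 groups. High A4 replicate 1 was low for MRPL3, a large subunit protein near the peptidyl transferase centre named after its values were seen, at 384 against 645 to 673 in the other High A4 cows, and for FASTKD2 at 86.5 against 166 to 178. The same cow was high for CYP17A1, at 1772 against 412 to 459. High A4 replicate 2 was low for MRPS11, at 319 against 453 to 475, and for FASTK, at 134 against 184 to 194. High A4 replicate 3 was low for MRPS5, at 97.0 against 151 to 155. Control replicate 4 was high for MRPL1 (244 against 157 to 167 in the other Control cows), MRPL48 (156 against 111 to 118) and MRPS21 (344 against 199 to 216), and low for GABPA (312 against 448 to 473).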

How the results depend on the processing

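Members higher in High A4 at an adjusted p of 0.05 in limma numbered 0 in every alternative run, and the median over members was below 0 in each. The count of 1 lower member rose to 2 with no noise filter, MRPS26 and MRPS30 (2.67%, against 1.64% of all probe sets). Of these, MRPS26 had means at or below 100 in both groups. By the study's criterion 2 members were lower (2.94%, against 4.38%). Array weights gave 5 (7.35%, against 9.28% of all probe sets). The count was 0 where the mean of the 8 arrays had to exceed 100, and likewise after quantile normalization or cyclic loess. It was 0 too for arrays centred on the probe sets tested (added after seeing the data). Leaving out 1 cow gave 0 to 4. Cows with the same replicate number were different animals whose deviations correlated at -0.22 to 0.20, so they were not paired, and with the replicate block the count was 0 and MRPS30 had an adjusted p of 0.0983. MRPS30 log2 fold changes ran between -0.69 and -0.58 with 1 cow left out, and its highest was -0.44 (cyclic loess). The 8 members without overlap were 5 with arrays centred on the median of all probe sets, 4 with quantile normalization, 3 with cyclic loess, 4 with arrays centred on the probe sets tested, and 8 to 26 with 1 cow left out. The share of all probe sets without overlap was not counted under these settings. The median over members was -0.14 (quantile), -0.12 (cyclic loess) and -0.12 (centred on the probe sets tested), and -0.38 to -0.23 with 1 cow left out. Relative to all probe sets it was -0.25 with no filter, and -0.19 to -0.07 with 1 cow left out. The unadjusted count of 16 was 3 with quantile normalization (4.41%, against 7.68% of all probe sets tested) and 2 with cyclic loess (2.94%, against 6.77%). With arrays centred on the probe sets tested it was 3 (4.41%, against 6.6%), and with array weights 26 (38.2%, against 26.1%). With 1 cow left out it ran between 8 without High A4 replicate 2 (11.8%, against 12.3%) and 26 without High A4 replicate 4 (38.2%, against 23.2%).

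Small fold changes reversed in sign. With quantile normalization, cyclic loess and arrays centred on the probe sets tested, in that order, they were 0.10, 0.12 and 0.10 for MRPL4, 0.067, 0.075 and 0.057 for MRPL23, 0.043, 0.062 and 0.044 for MRPL43, 0.069, 0.094 and 0.081 for MRPS2, 0.066, 0.084 and 0.066 for MRPS18A, 0.12, 0.14 and 0.13 for GFM1, and 0.13, 0.14 and 0.13 for PPRC1. MRPL16 was 0.019 with cyclic loess and 0.050 with arrays centred on the probe sets tested. MRPL23 was 0.074 with its probe sets averaged. With arrays centred on all probe sets MRPL36 was -0.017, MRPS31 -0.052 and FASTK -0.022, and with array weights MRPL21 was -0.0091 and CHCHD1 -0.0040. With 1 cow left out, MRPL4 ran between -0.16 and 0.051, MRPL36 between -0.023 and 0.11, MRPS2 between -0.33 and 0.070, MRPS31 between -0.041 and 0.11, GFM1 between -0.071 and 0.021, FASTK between -0.036 and 0.18, and PPRC1 between -0.094 and 0.019. The cause of these changes was not tested.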
